A study of Homo sapiens with 6 samples.

Results

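Acute phase proteins and the genes of the IL-6, STAT3 and NF-kB pathways were followed in HepG2, a human liver tumour cell line that makes many plasma proteins, after growth on flat plates (2D) and inside a bioreactor of interwoven hollow fibers (3D). The 36 genes were chosen by symbol for their roles: secreted acute phase proteins, chemokines, receptors, kinases, STAT3 with its feedback inhibitors, and NF-kB subunits, inhibitors and targets. Earlier results of these data were known when they were chosen. Of these, 31 had a row in the table of 19846 genes, and CRP, SAA1, SAA2, CXCL1 and CCL2 were not analysed here. After the filter on low counts 29 of the 31 were tested among 15314 genes, leaving out LBP and CXCL2. Each culture form was represented by 3 libraries of untreated HepG2 at passage 7 to 9, with no genetic change named in the labels. Plates received 200000 cells per square centimetre, in EMEM that was renewed every 2 days. The 3D cells received a mix of EMEM and DMEM with 10% serum, recirculated at 23.5 mL/min and fed at 2 mL/hour. For serum on plates and the length of culture, values were not given in the sources used here. Culture form, medium and feeding therefore differ together between the groups and cannot be told apart. The labels do not say whether libraries of a group came from separate cultures, so the p-values measure only the spread between these libraries, which may be technical. HepG2 is a tumour line and not primary liver, which limits it as a model of the hepatic acute phase.

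In the acute phase response, hepatocytes change the output of plasma proteins when IL-6, related cytokines or IL-1 reach the liver. IL-6 binds IL6R, and the complex engages IL6ST (gp130), the signalling chain shared with oncostatin M, whose own receptor chain is OSMR. JAK kinases bound to these chains phosphorylate STAT3, which enters the nucleus and induces acute phase genes together with SOCS3, a feedback inhibitor. IL-1 and TNF act through NF-kB dimers. RELA pairs mostly with the p50 product of NFKB1 and is held in the cytoplasm by NFKBIA, while RELB pairs with the p52 product of NFKB2 in the slower non-canonical branch. Many acute phase genes respond to both pathways.

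Promoter sequences are shown first for genes with a perfect copy of the classical kappa B decamer, because a member that fell and members that were not called share these letters. Windows of 250 bases before the start site came from RefSeq (GRCh38.p14), and 25 of the 31 genes were matched by symbol. ORM2, HP, LBP, FGL1, SOCS2 and RELB had no match. For 22 of the 25 windows the bases that follow were found in a GENCODE transcript of the gene. The capitals mark the decamer GGGAATTTCC or its reverse complement GGAAATTCCC, within 30 bases of context.
NFKBIZ: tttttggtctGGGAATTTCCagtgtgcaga
NFKB1: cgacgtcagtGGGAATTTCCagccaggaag
CXCL2: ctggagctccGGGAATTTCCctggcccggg
NFKBIA: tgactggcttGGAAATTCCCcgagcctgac
Counted from the base before the start, the NFKBIZ copy began at -223, the NFKB1 copy at -49, the CXCL2 copy at -78 and the NFKBIA copy at -81. These 4 of 25 windows held the decamer, against 18 of the 11264 promoters of genes in the table (0.160%). The decamer was picked after the matches were seen, and all 4 genes are long known as NF-kB targets, so the share is a description only.

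Looser letters were common in promoters of other genes too. The NF-kB consensus of GGG, 5 bases of any kind and CC, searched on both strands, was in 20 of 25 windows, but also in 68.9% of the promoters of genes in the table. It was in 9 of the 10 windows of genes that fell and in 9 of the 13 windows of genes that were tested and not called. TTCNNNGAA, the STAT palindrome, was in 2 of 25 windows and in 5.59% of promoters in the table. RELA, which was not called, carried it at -106 from the RefSeq start, and ICAM1, which fell, at -75 in a window that lies wholly in annotated exons. The RELA window (chr11:65663858-65664107, minus strand) does not adjoin the GENCODE bounds of RELA, which end at 65663094, so its distance depends on the start used. The sites of RELA and ICAM1 are shown with the palindrome in capitals.
RELA: ttaagacgaaTTCAGAGAAaataaaaaagt
ICAM1: ggcgcgaggtTTCCGGGAAagcagcaccgc
TTGCNNAA, a C/EBP motif, whose reverse complement TTNNGCAA was found in the same places, was in 6 of 25 windows and in 6.11% of promoters in the table. A match is not a binding site, and a window without one says nothing about the factor.

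The whole windows of NFKBIZ, NFKBIA and NFKB2 touch no annotated exon, and they are printed so that an inhibitor that fell, an inhibitor that was not called and a subunit that fell can be compared. Capitals mark the NF-kB consensus on either strand.
NFKBIZ (chr3:101827740-101827989, plus strand): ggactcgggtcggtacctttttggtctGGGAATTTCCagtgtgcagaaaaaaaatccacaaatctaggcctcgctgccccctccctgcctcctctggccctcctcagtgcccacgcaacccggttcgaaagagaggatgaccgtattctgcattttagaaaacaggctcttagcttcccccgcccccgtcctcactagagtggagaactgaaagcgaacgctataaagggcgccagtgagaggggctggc
NFKBIA (chr14:35404750-35404999, minus strand): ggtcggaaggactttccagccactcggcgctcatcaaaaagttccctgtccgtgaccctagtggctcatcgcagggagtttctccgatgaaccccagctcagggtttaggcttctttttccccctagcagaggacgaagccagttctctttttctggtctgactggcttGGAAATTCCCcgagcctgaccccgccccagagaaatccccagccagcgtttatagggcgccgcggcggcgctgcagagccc
NFKB2 (chr10:102393860-102394109, plus strand): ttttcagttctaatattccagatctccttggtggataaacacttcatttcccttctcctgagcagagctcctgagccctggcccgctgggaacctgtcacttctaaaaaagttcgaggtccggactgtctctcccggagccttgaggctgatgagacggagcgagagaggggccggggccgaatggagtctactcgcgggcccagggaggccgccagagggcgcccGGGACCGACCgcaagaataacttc
The single match in the NFKB2 window, GGGACCGACC, starts at -24 and lacks the run of A and T that the NFKBIZ and NFKBIA copies have. Levels of the 3 genes are given with their groups below.

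Library totals ranged from 16270361 to 17943513 counts in 2D and from 9530795 to 15897621 in 3D, where replicate 1 was the shallowest and lay apart from replicates 2 and 3 on the second principal component. Levels are given as CPM, read counts divided by the TMM-scaled library size, and a floor of 3 counts corresponds to 0.167 to 0.298 CPM, covering counting error only. All 9 hepatocyte markers were in the table, and their summed level was 40144 to 44535 CPM in 2D and 31246 to 50120 CPM in 3D. This sum joins opposite changes, with APOA1 and TF higher and APOB lower. APOB had 16555, 18504 and 18208 CPM in 2D and 5135, 9040 and 5716 CPM in 3D. Of 7 macrophage and blood markers 3 were in the table, summing to 980 to 1476 CPM in 2D and 436 to 1015 CPM in 3D. LYZ made up most of this sum, and CD68 rose. PTPRC, CD163, ITGAM and CSF1R were not analysed here. The 3 endothelial markers in the table summed to 2.00 to 4.79 CPM in 2D and 2.46 to 5.49 CPM in 3D. The 3 fibroblast markers in the table summed to 35.5 to 44.8 CPM in 2D and 25.5 to 42.8 CPM in 3D, with COL1A1 higher and PDGFRB and ACTA2 lower. The part of such cells in the results below was not tested.

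In 3D culture 11 of the 29 tested genes fell and 1 rose, while 17 did not pass the edgeR test (adjusted p under 0.05). Over all genes tested 17.6% were lower and 19.0% higher by the same rule, beside 37.9% and 3.45% of the members. Since members were chosen with earlier results of these data known, this contrast is a description only. In bulk RNA, fewer cells of a type and less RNA per cell cannot be told apart. The median log2 fold change was -0.39 for the 29 genes and 0.02 for all genes tested. By role, 6 of 7 genes of the receptor and STAT3 group fell, a group that counts IL1RN, a secreted antagonist and acute phase protein, among its members. So did 2 of 4 NF-kB subunits, 1 of 4 NF-kB inhibitors and regulators, 1 of 2 other NF-kB targets and 1 of 8 genes listed as acute phase proteins. Of the 29 tested genes, 7 were called lower and at least halved (LCN2, IL6R, IL6ST, OSMR, RELB, NFKBIZ and ICAM1), against 4.49% of all genes tested. TNFAIP2, the gene that rose, at least doubled, as did 7.20% of all genes. Groups did not overlap in 13 genes lower and 2 genes higher in 3D, compared with 24.9% and 25.6% of all genes. The count of genes that fell was 7 without 2D replicate 1, 7 without 2D replicate 2 and between 8 and 13 without each of the other libraries. The count that rose was 3 without 3D replicate 1, when HP and HPX joined TNFAIP2.

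**Figure D1:**
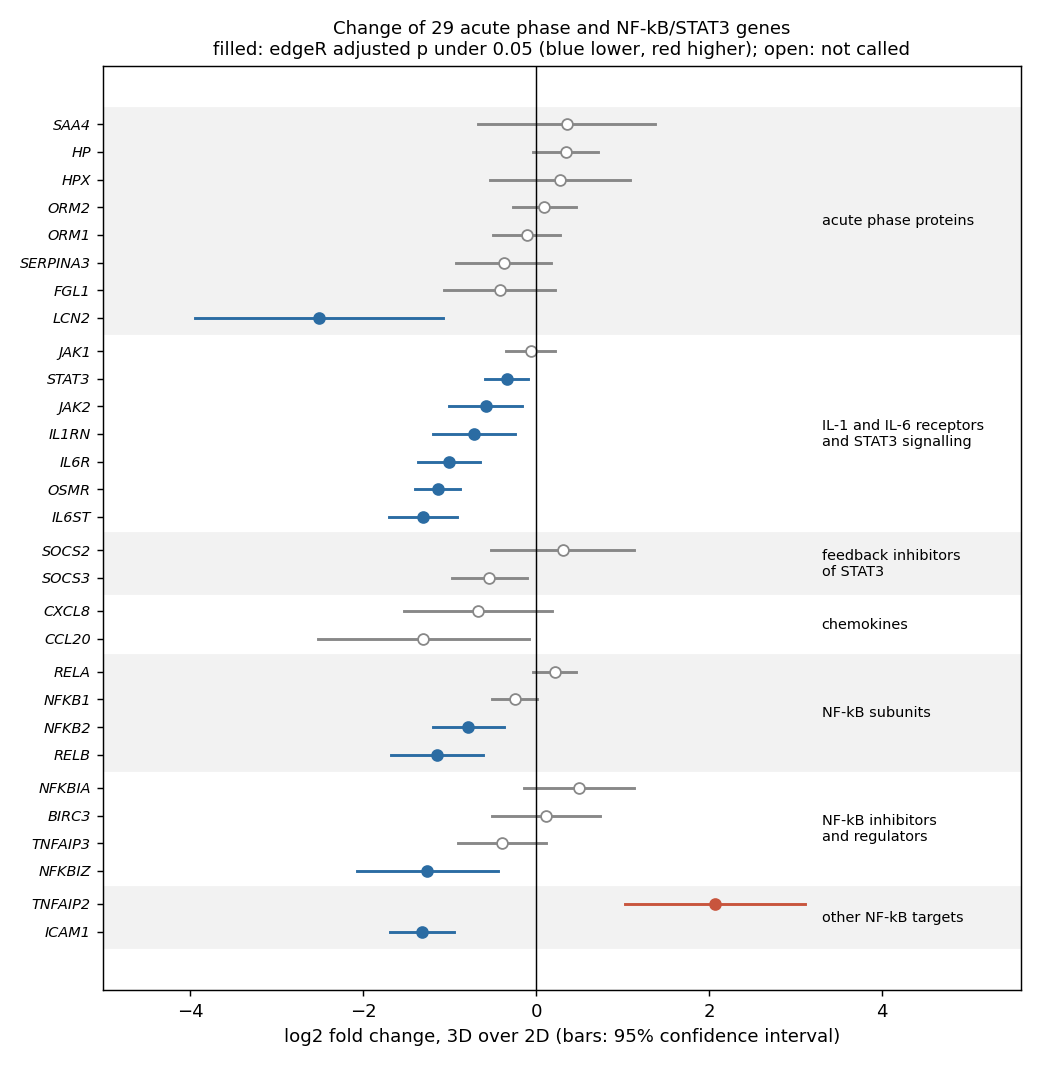
Log2 fold change (3D over 2D, x axis) of the 29 tested genes with 95% confidence intervals, grouped by role; filled points passed the edgeR test at an adjusted p under 0.05. Filled points below 0 cluster in the receptor and STAT3 group, which includes the secreted antagonist IL1RN, and TNFAIP2 at 2.07 is the single filled point above 0.

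Both receptor chains of the IL-6 pathway and the oncostatin M receptor fell at least 2-fold in 3D. IL6ST, which encodes gp130 (chromosome 5, 55935095 to 55994993, minus strand, hg38), stood at 495, 421 and 475 CPM in 2D replicates 1 to 3 and at 166, 245 and 151 CPM in 3D replicates 1 to 3. All 3D libraries lay below all 2D libraries by a wide gap. The mean went from 464 ± 38.3 to 187 ± 50.7 CPM (SD, n = 3 per group), a 2.47-fold fall (log2 -1.31, SE 0.18, edgeR adjusted p = 0.000349).

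OSMR (chromosome 5, 38845858 to 38945596, plus strand) had 140.1, 156 and 154 CPM in 2D and 61.6, 73.3 and 69.6 CPM in 3D. Its libraries were the tightest of the 3 receptors within each group. Its mean was 2.20-fold lower in 3D (log2 -1.14, SE 0.12, edgeR adjusted p = 8.51e-05). OSMR overlaps RICTOR on the opposite strand, and since strand handling is not given, reads from their shared stretch cannot be told apart. IL6R, the chain that binds IL-6 itself (chromosome 1, 154405193 to 154469450, plus strand), had 32.5, 34.7 and 25.5 CPM in 2D and 17.2, 13.4 and 15.6 CPM in 3D. The groups did not overlap, and the mean was 2.01-fold lower in 3D (log2 -1.01, SE 0.16, edgeR adjusted p = 0.000870). In each of the 16 alternative fits the 3 receptors passed the test in the same direction.

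JAK2 and STAT3 fell by smaller estimates than the receptors, a difference that was not tested, and JAK1 was not called. JAK1, the main kinase bound to gp130, stood at 85.9, 80.9 and 82.1 CPM in 2D and at 82.3, 89.2 and 66.7 CPM in 3D. These ranges overlap, and its log2 difference was -0.06 (95% confidence interval -0.35 to 0.22, edgeR adjusted p = 0.732). JAK1 overlaps RAVER2 on the opposite strand, and reads from their shared stretch cannot be told apart, which also limits the ratios to JAK1 below. JAK2, a related kinase that also serves hormone receptors, had 9.08, 7.82 and 8.66 CPM in 2D and 5.75, 6.33 and 4.99 CPM in 3D. It fell 1.49-fold (log2 -0.58, SE 0.19, edgeR adjusted p = 0.0350). JAK2 has one of the longest transcripts of the list (5285 bases), and after correction for length and GC content its log2 difference was -0.21 and no longer called. The JAK2 call was also lost without any 1 of 2D replicates 1, 2 and 3 and without 3D replicate 3 (edgeR adjusted p = 0.121, 0.0613, 0.0936 and 0.0917), and its adjusted p lay between 0.0342 and 0.441 over the 16 alternatives.

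STAT3, the transcription factor of the pathway, had 188, 207 and 199 CPM in 2D and 145, 162 and 162 CPM in 3D. The fall was small but the groups did not overlap (1.27-fold, log2 -0.34, SE 0.11, edgeR adjusted p = 0.0364). This call was lost without any 1 of 2D replicates 1, 2 and 3 and without 3D replicate 3 (edgeR adjusted p = 0.0793, 0.116, 0.0973 and 0.0531), in a range of 0.0126 to 0.137 over the 16 alternatives. IL1RN, a secreted antagonist of the IL-1 receptor and itself an acute phase protein, had 56.7, 50.2 and 32.6 CPM in 2D and 23.8, 25.8 and 34.9 CPM in 3D. 3D replicate 3 reached above 2D replicate 3, so the groups overlapped, although the gene was called (1.64-fold lower, log2 -0.72, SE 0.21, edgeR adjusted p = 0.0238). The call was lost without 2D replicate 1 or 2 and without 3D replicate 1 or 2 (edgeR adjusted p = 0.0940, 0.0667, 0.0839 and 0.0786), in a range of 0.00404 to 0.141 over the 16 alternatives.

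**Figure D2:**
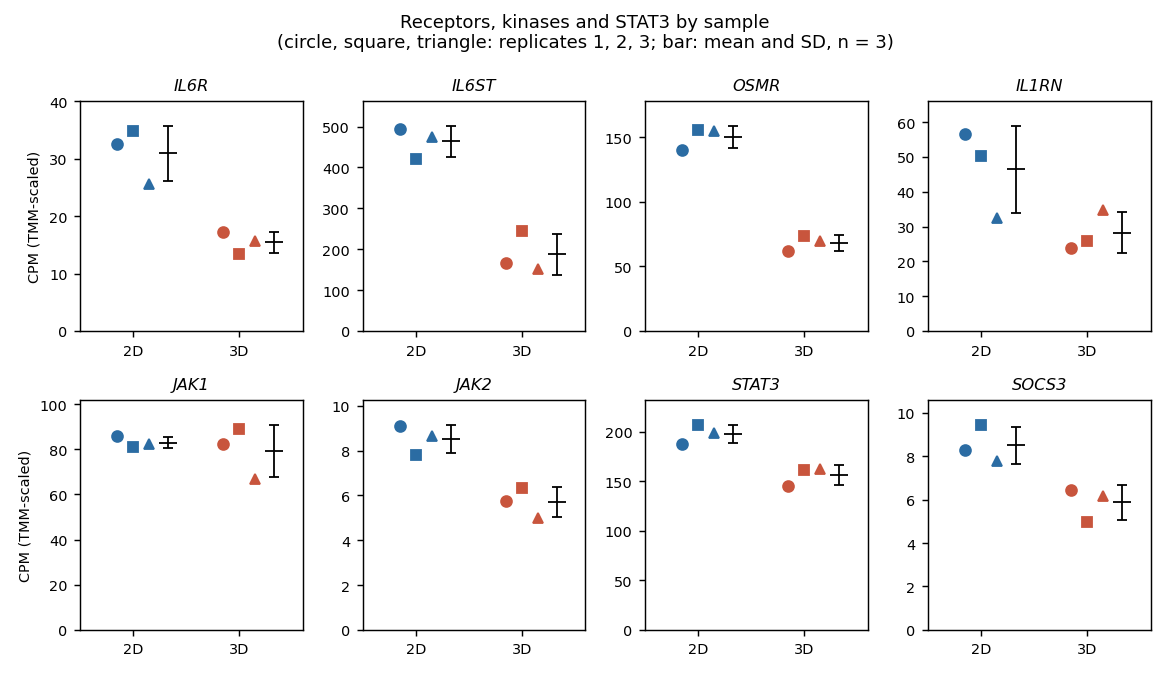
TMM-scaled CPM (y axis, from 0) of IL6R, IL6ST, OSMR, IL1RN, JAK1, JAK2, STAT3 and SOCS3 in each 2D (blue) and 3D (red) library, with the mean and SD of 3 libraries beside the points. In the panels of IL6R, IL6ST, OSMR, JAK2, STAT3 and SOCS3 the 3D points lie below all 2D points, though SOCS3 was not called. Those of JAK1 and IL1RN overlap.

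Of the feedback inhibitors, SOCS3, a direct STAT3 target that binds gp130, had 8.26, 9.46 and 7.77 CPM in 2D and 6.45, 4.975 and 6.19 CPM in 3D. All 3D libraries were below all 2D libraries, with a log2 difference of -0.54 that narrowly missed the threshold (SE 0.20, edgeR adjusted p = 0.0518). SOCS3 was called without 3D replicate 1 (edgeR adjusted p = 0.0398), with RLE scaling (0.0496) and after length and GC correction (log2 -0.73, adjusted p = 0.00879), in a range of 0.00879 to 0.172 over the 16 alternatives. SOCS2, which mainly damps growth hormone signalling, was low in every library, at 1.57, 2.42 and 1.55 CPM in 2D and 3.37, 2.20 and 1.41 CPM in 3D. Its groups overlapped (log2 0.31, 95% confidence interval -0.51 to 1.13), and its antisense transcript SOCS2-AS1 overlaps it on the opposite strand.

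Most secreted acute phase proteins did not pass the test. SERPINA3 (alpha-1-antichymotrypsin), by far the most abundant of them, stood at 2519, 2274 and 2525 CPM in 2D and at 1258, 1626 and 2764 CPM in 3D. The 3D libraries spread on both sides of 2D, with replicate 3 the highest of all 6. Its log2 difference was -0.37 (95% confidence interval -0.93 to 0.18, edgeR adjusted p = 0.266), and SERPINA3 was called lower without 3D replicate 3 (log2 -0.76, adjusted p = 0.00968, in a range of 0.00968 to 0.546 over the 16 alternatives).

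ORM1 and ORM2, the near-identical genes of orosomucoid, whose reads can be hard to assign, lay at 179 to 276 and 119 to 157 CPM in 2D and at 176 to 246 and 117 to 179 CPM in 3D. Summed over both genes the levels were 401, 433 and 298 CPM in 2D and 293, 393 and 425 CPM in 3D, fully overlapping. Their log2 differences were -0.11 (95% confidence interval -0.49 to 0.28) for ORM1 and 0.09 (-0.27 to 0.46) for ORM2. After length and GC correction the difference of ORM1 was -0.46 and that of ORM2 turned to -0.28, neither of them called in that fit (edgeR adjusted p = 0.0502 and 0.162, in ranges of 0.0481 to 0.9754 over 17 alternatives for ORM1 and 0.157 to 0.927 over 16 for ORM2).

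HP, the haemoglobin scavenger haptoglobin, had 141, 141 and 152 CPM in 2D and 130.4, 216 and 204 CPM in 3D. Only 3D replicate 1 lay below the 2D range, and HP was called higher without it (log2 0.52, edgeR adjusted p = 0.00365, in a range of 0.00365 to 0.592 over 17 alternatives), though not with all libraries (log2 0.34, SE 0.17, adjusted p = 0.139). HP has a close copy, HPR, and overlaps TXNL4B on the opposite strand. HPX, the heme carrier hemopexin, also had its lowest level in 3D replicate 1, at 12.5, 19.2 and 17.0 CPM in 2D and 8.73, 22.9 and 26.7 CPM in 3D. HPX was called higher without 3D replicate 1 (log2 0.60, edgeR adjusted p = 0.0282, in a range of 0.0207 to 0.977), and with all libraries its log2 difference was 0.27 (95% confidence interval -0.53 to 1.08).

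FGL1, a fibrinogen-related protein induced by IL-6, had 151, 215 and 146 CPM in 2D and 98.6, 93.4 and 190.5 CPM in 3D. As for SERPINA3, 3D replicate 3 was the high one, and FGL1 was called lower without it (log2 -0.83, edgeR adjusted p = 0.00861, in a range of 0.00861 to 0.868) but not with it (log2 -0.42, SE 0.28, adjusted p = 0.279). SAA4, the constitutive serum amyloid A, ranged from 8.49 to 20.4 CPM in 2D and from 7.44 to 21.1 CPM in 3D. Each group thus held libraries at both levels (log2 0.35, 95% confidence interval -0.67 to 1.38), and SAA4 overlaps the read-through gene SAA2-SAA4. Without 2D replicate 2 and 3D replicate 1 together, a choice made after seeing the data, SAA4 was called higher (log2 1.17, edgeR adjusted p = 0.00211, in a range of 0.00211 to 0.937). LBP, which hands bacterial lipopolysaccharide to its receptor, had 1 to 3 counts in each library and was too low to test.

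LCN2, an iron-siderophore binding protein induced by IL-1 through NF-kB and NFKBIZ, was the single one to fall among the 8 tested genes listed here as acute phase proteins. It was rare: 31, 18 and 27 counts in 2D (1.94, 1.09 and 1.499 CPM) against 5, 0 and 5 counts in 3D (0.496, 0 and 0.352 CPM). The groups did not overlap, and the fitted log2 fold change was -2.51 (SE 0.66, edgeR adjusted p = 0.0119). Because the 3D level rests on 10 counts in total, the size of this fall is poorly fixed (95% confidence interval -3.95 to -1.07). The call was lost without 2D replicate 1 (edgeR adjusted p = 0.0522, in a range of 0.00354 to 0.0522 over the 16 alternatives).

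**Figure D3:**
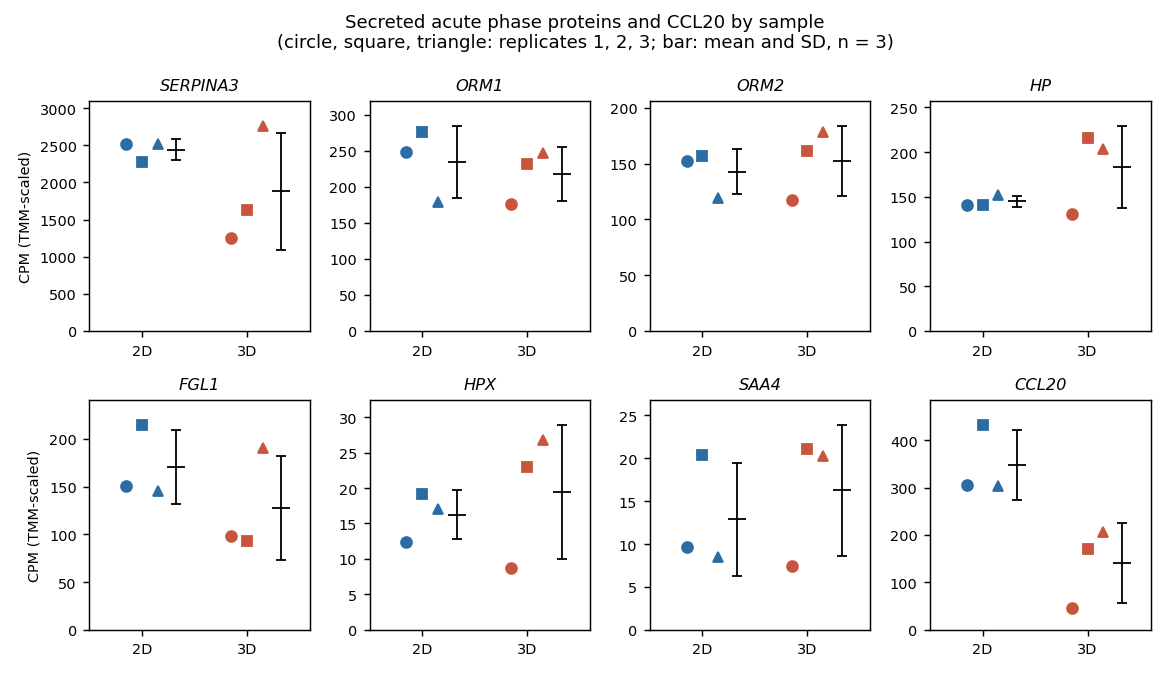
TMM-scaled CPM (y axis, from 0) of 7 acute phase proteins and the chemokine CCL20 in each 2D (blue) and 3D (red) library, with the mean and SD of 3 libraries. SERPINA3 and FGL1 have a high 3D replicate 3, HP and HPX a low 3D replicate 1, and CCL20 alone shows groups that do not overlap.

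Chemokines were represented by 3 genes. CCL20, which attracts cells bearing CCR6 and is induced by NF-kB, stood at 304, 433 and 304 CPM in 2D and at 45.1, 169.6 and 206 CPM in 3D. All 3D libraries were below all 2D libraries, but 3D replicate 1 lay far below the others. The log2 difference of -1.30 had a wide error and was not called (SE 0.51, edgeR adjusted p = 0.0900). Without 3D replicate 1 the difference was smaller, at -0.90, and called (edgeR adjusted p = 0.00397), and without 3D replicate 3 it was -1.69 and called (0.0297), in a range of 0.00397 to 0.257 over the 16 alternatives. After length and GC correction CCL20 was called as well (log2 -1.44, edgeR adjusted p = 0.0448). CXCL8 (interleukin 8) was low, at 2.38, 6.12 and 3.94 CPM in 2D and 2.78, 1.55 and 3.52 CPM in 3D, with overlapping groups (log2 -0.67, 95% confidence interval -1.53 to 0.18). CXCL2 had between 1 and 24 counts in a library and was not tested.

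The subunits of the non-canonical NF-kB branch fell. RELB (chromosome 19, 45001430 to 45038198, plus strand) had 8.95, 10.8 and 8.33 CPM in 2D and 4.96, 2.91 and 4.92 CPM in 3D. The highest 3D library was well under the lowest 2D library, and the mean was 2.21-fold lower (log2 -1.14, SE 0.24, edgeR adjusted p = 0.00388). NFKB2 (chromosome 10, 102394110 to 102402529, plus strand), the precursor of p52, had 26.2, 27.0 and 23.3 CPM in 2D and 19.3, 11.5 and 13.9 CPM in 3D. It fell 1.72-fold (log2 -0.78, SE 0.19, edgeR adjusted p = 0.00761), with replicate 1 the highest of the 3D libraries. Both kept their call in each of the 16 alternative fits.

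The canonical subunits were not called. NFKB1, the precursor of p50, had 50.9, 49.6 and 52.4 CPM in 2D and 40.7, 41.4 and 47.0 CPM in 3D, non-overlapping but close (log2 -0.25, SE 0.12, edgeR adjusted p = 0.130). RELA stood at 63.0, 64.3 and 63.2 CPM in 2D and at 78.5, 70.4 and 72.3 CPM in 3D, all 3D libraries above all 2D libraries (log2 0.21, SE 0.11, edgeR adjusted p = 0.154). RELB and RELA thus lay on opposite sides of 0, but RELA was not called. After length and GC correction the log2 difference of RELA was 0.032 (edgeR adjusted p = 0.802). The log2 ratio of RELB to RELA within a library, which needs no scaling between libraries, went from -2.77 ± 0.18 in 2D to -4.15 ± 0.39 in 3D (SD, n = 3 per group, two-sided exact permutation p = 0.1, the smallest that 3 against 3 libraries allow). The ratio of NFKB2 to NFKB1 differed by -0.56, with overlapping groups (exact permutation p = 0.2). In all 9 such ratios were computed, chosen after the levels were seen, and after Benjamini-Hochberg adjustment the smallest exact permutation p was 0.15. The ratios of IL6ST, OSMR and IL6R to JAK1 differed by -1.26, -1.07 and -0.93, each without overlap between groups (exact permutation p = 0.1). The ratios of STAT3 to JAK1 and of SOCS3 to STAT3 overlapped between groups, at differences of -0.27 and -0.20 (exact permutation p = 0.3 for both).

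Of the 4 NF-kB inhibitors and regulators NFKBIZ alone passed the test. NFKBIZ, a nuclear partner of NF-kB needed for a secondary set of targets such as LCN2, had 38.8, 83.7 and 68.9 CPM in 2D and 15.5, 27.4 and 36.6 CPM in 3D. The gap between groups was narrow, from 36.6 CPM in 3D replicate 3 to 38.8 CPM in 2D replicate 1, and the mean was 2.39-fold lower (log2 -1.26, SE 0.35, edgeR adjusted p = 0.0254). Its call was lost without 2D replicate 2 or 3 and without 3D replicate 1 (edgeR adjusted p = 0.0735, 0.0899 and 0.0645), in a range of 2.62e-05 to 0.0899 over the 16 alternatives. After length and GC correction its log2 difference was -1.09 (adjusted p = 0.0581).

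NFKBIA (I kappa B alpha), the rapidly induced inhibitor of RELA dimers, had 93.2, 121 and 116 CPM in 2D and 113, 115 and 238 CPM in 3D. One library, 3D replicate 3, was high, and the other 3D libraries lay inside the 2D range (log2 0.50, 95% confidence interval -0.14 to 1.14, edgeR adjusted p = 0.2004). Without 3D replicate 3 the log2 difference of NFKBIA was 0.043. The log2 ratio of NFKBIZ to NFKBIA differed by -1.70 between groups that did not overlap (exact permutation p = 0.1). Both promoters carry the same decamer, and its part in these levels was not tested. TNFAIP3 (A20), a ubiquitin-editing inhibitor of NF-kB signalling, had 79.8, 98.4 and 102 CPM in 2D and 66.9, 48.6 and 98.4 CPM in 3D. It was called lower without 3D replicate 3 (log2 -0.70, edgeR adjusted p = 0.0146, in a range of 0.0146 to 0.5002) but not with it (log2 -0.39, SE 0.23, adjusted p = 0.210). BIRC3 (cIAP2), a ubiquitin ligase that restrains the non-canonical branch, ranged from 2.36 to 4.44 CPM in 2D and from 3.45 to 4.36 CPM in 3D (log2 0.11, 95% confidence interval -0.51 to 0.74).

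The other targets moved apart. ICAM1, an adhesion receptor for leukocytes (chromosome 19, 10270835 to 10286615, plus strand), had 160, 205 and 174 CPM in 2D and 72.5, 55.7 and 87.9 CPM in 3D. Every 3D library was below every 2D library, and the mean fell 2.50-fold (log2 -1.32, SE 0.17, edgeR adjusted p = 0.000247). TNFAIP2, a protein of membrane protrusions first found as a TNF-induced gene (chromosome 14, 103123442 to 103137439, plus strand), had 1.31, 1.70 and 0.666 CPM in 2D and 7.93, 5.36 and 2.32 CPM in 3D. It was low, and its 3D libraries spread widely, yet all lay above the 2D libraries (4.20-fold higher, log2 2.07, SE 0.47, edgeR adjusted p = 0.00678). Both genes passed the test in each of the 16 alternative fits. The ratio of ICAM1 to TNFAIP2 within a library changed by -3.36 on the log2 scale, without overlap (exact permutation p = 0.1).

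**Figure D4:**
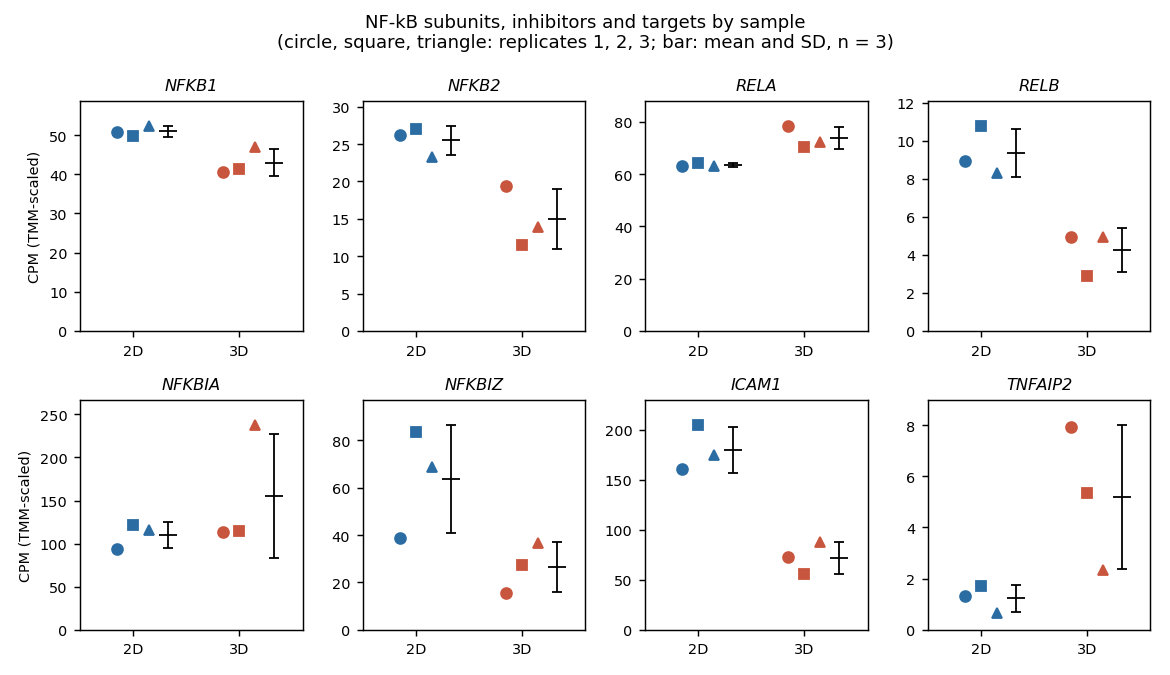
TMM-scaled CPM (y axis, from 0) of NF-kB subunits, inhibitors and targets in each 2D (blue) and 3D (red) library, with the mean and SD of 3 libraries. RELB, NFKB2, NFKBIZ and ICAM1 are lower and TNFAIP2 higher in all 3D libraries. NFKB1 is lower and RELA higher in all 3D libraries too, though neither was called. NFKBIA has a single high library, 3D replicate 3.

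To compare levels between genes, CPM was divided by the median transcript length in kilobases. On this scale SERPINA3 was the highest member in 2D, at 1217 CPM per kilobase, followed by CCL20 at 423, ORM1 at 292, ORM2 at 188 and IL6ST at 180.2. In 3D SERPINA3 stood at 939 CPM per kilobase, ORM1 at 272, ORM2 at 200.4, CCL20 at 171 and IL6ST at 72.8. Among receptor chains IL6ST was far above OSMR (41.3 in 2D and 18.7 in 3D) and IL6R (9.61 and 4.79), an order that was the same in both cultures. STAT3, at 71.4 CPM per kilobase in 2D, was above JAK1 at 16.4 and JAK2 at 1.61. Of the subunits RELA was the highest (23.7 in 2D and 27.5 in 3D) and RELB the lowest (4.11 and 1.87). Since transcripts of different length may be in use, these levels are approximate.

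A transcript length was matched for 13513 of the 15314 tested genes, and over these, fold changes in this comparison moved with length. The median log2 went from 0.35 in the shortest of 10 equal length groups to -0.40 in the longest. The share called lower went from 4.73% to 47.6%. By median transcript length the receptors IL6ST, IL6R and OSMR sit in the 6th, 7th and 8th groups, where 17.2%, 20.1% and 22.8% of genes were lower. Which annotated transcripts the cells used was not measured. A gene that uses a longer or shorter one belongs to another group, so groups and correction are approximate. After length and GC correction 11 members were lower and 1 higher, against 18.9% and 17.7% of the genes in that fit. The correction removed JAK2 and NFKBIZ and added SOCS3 and CCL20, and 10 of the 12 genes called remained. IL6ST, OSMR and IL6R kept log2 differences of -1.15, -0.97 and -1.10, and RELB, NFKB2 and ICAM1 had larger ones of -1.48, -0.98 and -1.53.

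**Figure D5:**
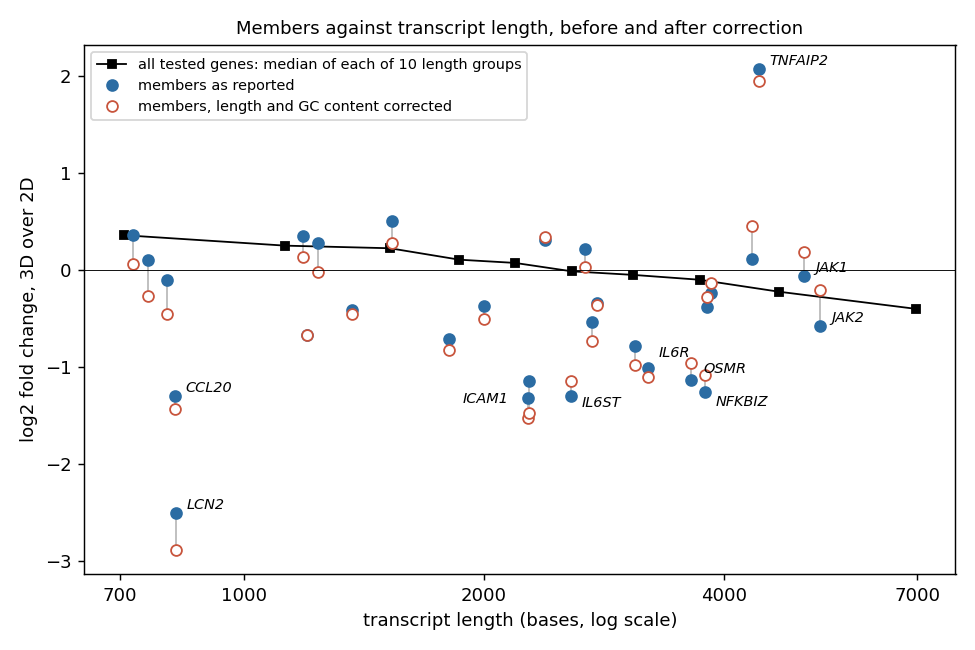
Log2 fold change (y axis) of each member against its median transcript length (x axis, log scale) as reported (filled) and after length and GC correction (open). Squares give the median of the tested genes with a matched transcript length in 10 length groups (from 0.35 to -0.40). Most members called lower lie well under the black line at their length, and JAK2 moves from -0.58 to -0.21.

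Other genes of these pathways were counted in 5 lists that do not contain the members, to be read beside the 17.6% of all tested genes that were lower and the 19.0% that were higher. These lists too were chosen with earlier results of these data known. Of 37 tested IL-6 family, JAK/STAT and feedback genes 12 fell (32.4%) and 1 rose (2.70%), with a median log2 of -0.22, and 7 were lower without 2D replicate 2. CEBPB, the liver regulator induced by IL-6, fell from 354 ± 37.5 to 91.8 ± 33.7 CPM (log2 -1.95, SE 0.25), and MCL1 and PIM1, a survival factor and a kinase induced by STAT3, had log2 changes of -1.30 and -1.18. CEBPA, the constitutive relative of CEBPB, rose from 125 ± 17.5 to 212 ± 9.37 CPM (log2 0.76, SE 0.13, and 0.47 after length and GC correction). CEBPD, an acute phase regulator, averaged 27.6 ± 5.57 CPM on plates and 27.7 ± 3.73 CPM in the bioreactor.

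Of 44 tested NF-kB signalling genes 8 fell (18.2%, close to the share of all genes) and 3 rose (6.82%), with a median log2 of -0.16. In edgeR the 3 higher calls were lost without any 1 of the 2D replicates, and 1 gene was higher without 3D replicate 1. CYLD, a deubiquitinase that limits the pathway, IL1R1, the IL-1 receptor, and IRAK2, a kinase below it, had log2 changes of -1.01, -0.90 and -0.65, and TRAF2, an adaptor of TNF receptors, of 0.55. The TRAF2 call was lost without any 1 of 2D replicates 1, 2 and 3 and 3D replicate 1 (edgeR adjusted p = 0.0857, 0.0905, 0.0510 and 0.0672) and after length and GC correction (log2 0.28, adjusted p = 0.126), in a range of 0.0190 to 0.173. IL1R1 fell from 158 ± 22.6 to 84.6 ± 5.24 CPM (edgeR adjusted p = 0.000504). Of 21 tested chemokine, cytokine and NF-kB target genes 7 fell (33.3%) and 5 rose (23.8%), with a median log2 of -0.22. SOD2, the mitochondrial superoxide dismutase, fell from 442 ± 78.9 to 202 ± 20.8 CPM, and the chemokine CXCL16 from 69.1 ± 8.88 to 36.1 ± 2.03 CPM, while GADD45B and TNFSF10 rose (log2 0.76 and 0.95). GADD45B lost its call after length and GC correction (log2 0.36, edgeR adjusted p = 0.0909, in a range of 0.000544 to 0.0909). TNFSF10 lost its call without 2D replicate 2, 2D replicate 3 or 3D replicate 2 (edgeR adjusted p = 0.0592, 0.0816 and 0.0917, in a range of 0.00928 to 0.0917).

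Of 22 further acute phase proteins 9 fell (40.9%) and 3 rose (13.6%), with a median log2 of -0.20, and 1 was higher without any 1 of 2D replicates 1 and 2 and 3D replicates 2 and 3. SERPING1, the C1 inhibitor, and the near-identical complement genes C4B and C4A had log2 changes of -1.48, -0.97 and -0.92. C1S, a complement protease, rose from 13.9 ± 3.25 to 20.5 ± 3.65 CPM. The C1S call was lost without 2D replicate 1 or 2 and without 3D replicate 2 or 3 (edgeR adjusted p = 0.196, 0.123, 0.0507 and 0.1802, in a range of 0.0106 to 0.196). Negative acute phase proteins, whose levels drop in inflammation, rose in 4 of 12 cases (33.3%) and fell in 1 (8.33%), with a median log2 of 0.38, and 2 were lower without 3D replicate 3 and after length and GC correction. The median transcript length of this list was 1411.5 bases. In the length group with a median of 1526 bases 29.4% of genes were higher. APOA1, the main protein of HDL, coagulation factor F12 and the iron carrier TF had log2 changes of 1.39, 1.48 and 0.70, and AHSG, fetuin-A, of -0.87. The TF call was lost without 2D replicate 1 or 2 and without 3D replicate 2 or 3 (edgeR adjusted p = 0.0516, 0.0817, 0.0504 and 0.0769, in a range of 0.00103 to 0.0817). ALB, the main plasma protein, averaged 6237 ± 1322 CPM on plates and 9849 ± 3472 CPM in the bioreactor (edgeR adjusted p = 0.0698). ALB was called higher without 3D replicate 1 (log2 0.88, edgeR adjusted p = 0.00576) and with the replicate block (edgeR adjusted p = 0.0397). With all libraries DESeq2 called it (adjusted p = 0.0150) and limma-voom did not (adjusted p = 0.0949), in a range of 0.00576 to 0.266 over the alternatives. HNF4A, the liver regulator, stood at 354 ± 20.2 and 325 ± 23.8 CPM (edgeR adjusted p = 0.453, and 0.0151 after length and GC correction, where its log2 difference was -0.44).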

How the data were processed

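RNA of 3 HepG2 libraries from plates and 3 from the bioreactor was sequenced. The authors deposited unscaled estimated counts for each gene, with 61.7% whole values (tolerance 0). The tools were STAR 2.4.1d and Partek on build hg38, per the submitters' processing notes, while annotation release, strand handling and counting settings were not given there. The lowest gene total in the table was 10.

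Counts were rounded (library totals moved by at most 25.0 counts) and tested with edgeR 4.0.16 in R 4.3.3 (filterByExpr, TMM, robust quasi-likelihood, culture as the only term, Benjamini-Hochberg over 15314 genes). Standard errors were derived from the F statistic. Alternatives were DESeq2 1.42.0, limma-voom (limma 3.58.1), other scalings and filters, a replicate block, length and GC correction (loess, span 0.5), and leaving out each library. Transcript length and GC content are medians over GENCODE 29 basic transcripts, and 16132 genes matched by symbol and position. Coordinates are GENCODE 29 gene bounds, and the deposited stops lie 1 base past them. Libraries of a group differed by more than sampling noise (chi-square per degree of freedom 11.1 to 28.5). The tests were checked on simulated data.

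All members are described whatever their result. From each list of other pathway genes, up to 3 called genes per direction could be named (5 CPM or more in the higher group, no overlap between groups), with HNF4A, ALB, CEBPB and CEBPD in any case. A gene that this rule names among the other acute phase proteins is not reported here. Members and lists were chosen with earlier results of these data known. The promoter decamer and the within-library ratios were chosen after values were seen. No protein sequences are shown.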

Additional observations from a re-analysis of the deposited data

How the results depend on the processing

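Over the alternatives, 11 members lower in 3D became 7 to 13 and 1 member higher became 1 to 3 when single libraries were left out. Without 2D replicate 2 and 3D replicate 1 together, an alternative chosen after seeing the data, 8 were lower and 4 higher. DESeq2, limma-voom, upper-quartile scaling and the filter of 1 CPM in 3 samples gave the same 12 calls. Over all genes, the number higher lay between 1938 and 2817 without single libraries, against 2910. IL6R, IL6ST, OSMR, NFKB2, RELB, ICAM1 and TNFAIP2 passed in every alternative.

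In some alternatives the sign turned for 7 genes, none of which was called there with the turned sign. With libraries left out, singly or as the pair named above, log2 differences ranged from -0.28 to 0.15 for ORM1 (0.010 without 2D replicate 2, 0.012 without 3D replicate 1), -0.039 to 0.31 for ORM2 (-0.027 without 2D replicate 3), -0.018 to 0.73 for HPX, -0.16 to 0.043 for JAK1, -0.044 to 0.56 for SOCS2, -0.21 to 0.30 for BIRC3 (-0.12 without 2D replicate 2) and -0.25 to 0.16 for CEBPD (-0.14, -0.031 and -0.12 without 2D replicate 2, 2D replicate 3 and 3D replicate 1). Length and GC correction gave -0.28 for ORM2, -0.026 for HPX, 0.18 for JAK1 and -0.40 for CEBPD, and with the replicate block added -0.28, -0.13, 0.18 and -0.38. CEBPD was at -0.0025 with DESeq2, -0.0030 with RLE scaling and -0.020 without a filter. The causes were not tested.

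Same-numbered 2D and 3D libraries did not deviate together (correlations 0.053, -0.0092 and -0.078), and not every library correlated best with its own number. With the replicate block 8 members were lower and 1 higher, and IL1RN, JAK2 and STAT3 missed the threshold (edgeR adjusted p = 0.0520, 0.0592 and 0.0689). With block and length and GC correction together ORM1 was called lower (log2 -0.45, edgeR adjusted p = 0.0481, against 0.0502 with the correction alone). Of 160 counts of other pathway genes under alternatives, 18 moved by over 1.5 times. Depth limits LCN2, TNFAIP2, CXCL2, LBP, SOCS2 and CXCL8, and 3 libraries per group limit all calls.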

Other observations

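Among the 3 plates, 2D replicate 2 held the highest level of 19 of the 29 tested members, whereas it was the highest plate for 34.6% of all tested genes. CCL20, CXCL8, NFKBIZ, SAA4, FGL1, RELB and ICAM1 were among the 19. CXCL2, which was not tested, also had its highest 2D level there, at 1.33 CPM against 0.376 and 0.611 CPM.

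Members spread more in the bioreactor than on plates, with a larger coefficient of variation in 3D for 23 of 29, as for 70.0% of all tested genes. The median coefficient of variation was 13.7% in 2D and 26.9% in 3D for members, and 10.4% and 16.5% for all tested genes. The summed level of the 31 members was 5086, 5177 and 5056 CPM in 2D and 2780, 3547 and 4959 CPM in 3D, and SERPINA3 alone made up 43.9% to 55.7% of it in each library.

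The segments GGCATTTCCC in the promoter windows of ORM1, at -112, and of SERPINA3, at -67, are identical and were noted after the search, so this is a description only.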
